A study of Mus musculus with 32 samples.

Results

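Calcium/calmodulin-dependent protein kinase II (CaM kinase II) and its inhibitors are 6 genes here, out of 44081 in the table of reads on 3′UTRs. Camk2a, Camk2b, Camk2d and Camk2g encode the alpha, beta, delta and gamma subunits of the kinase, and Camk2n1 and Camk2n2 encode its endogenous inhibitor proteins. The members were chosen by gene name, and their 3′ ends, 28 of the 74532 in the table of single ends, by the name of the gene in front of the number of the end. The RNA came from primary hippocampal neurons of embryonic day 18 C57BL/6 mice, with no genetic change or treatment named in the labels, after 15 days in culture. From 16 neurons the cell body and its dendrites were collected apart, giving 32 libraries paired by neuron, and no source used here ties a neuron to an animal or a culture dish. The RNA with poly(A) tails was copied by aRNA amplification (linear amplification through in vitro transcription). Neurons 1 to 4 had 3 rounds of it and the other 12 had 2, with both compartments of a neuron treated alike.

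CaM kinase II is a large holoenzyme assembled from its subunits. Calcium-bound calmodulin opens each subunit, and phosphorylation between neighbouring subunits keeps the enzyme active after calcium has fallen, a switch tied to the strengthening of excitatory synapses. The alpha subunit is the main form in forebrain excitatory neurons, and its mRNA is a classical example of an RNA carried into dendrites. The beta subunit also binds actin filaments, the delta and gamma subunits are found in many tissues, and both inhibitors bind the active kinase and block it.

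Dendrite libraries held 646521 to 6954420 reads on 3′UTRs and soma libraries 925525 to 21169974. Mitochondrially encoded genes took 2.39% to 35.8% of the reads of a dendrite library and 0.277% to 8.12% of those of a soma library. Map2, a dendritic mRNA of a microtubule-associated protein, was higher in dendrites by 2.66 on the log2 scale (SE 0.49, edgeR adjusted p = 0.00202). All 5 markers of neurons had reads in at least 13 of the 16 libraries of each compartment. On the same scale the other 4 were lower in dendrites, Tubb3 at -1.24, Snap25 at -1.22, Rbfox3 at -1.62 and Syt1 at -1.14. Their edgeR adjusted p was 0.0808 or more. The GABAergic markers Gad1 and Gad2, the enzymes that make GABA, had at least 1157.9 normalized reads each in every soma, and Gad1 had at least 10 reads in all 32 libraries. The summed level of 5 glutamatergic markers ran from 2.88 to 8922.1 normalized reads in somas and that of 6 GABAergic markers from 4765.8 to 54887.0. The part of this mixed marker profile in the results below was not tested. A normalized read count here is the deposited count divided by a size factor for the library.

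Annotated 3′ ends of Camk2b, Camk2g, Camk2n1 and Camk2n2 are printed below, and those of Camk2a and Camk2d are not. In the table of single ends, the ends of Camk2b held 97.2% of its 3′UTR reads and that of Camk2g 94%. The end of Camk2n2 held 26222 of 26234 reads, but that of Camk2n1 held 6 of 7175. Each line gives the last 30 bases of an annotated transcript of GENCODE M21 (GRCm38, the same assembly as mm10), with the poly(A) signal AATAAA in capitals where it occurs.

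Camk2b, 3′-most end, chr11:5969644-5969673, minus strand: gcaAATAAAaaaaaaaaaaaaaaaaaaaaa
Camk2b, next end upstream, chr11:5971568-5971597, minus strand: aaacaaacaaaaacctaaagaaaggaaaaa
Camk2g, chr14:20734875-20734904, minus strand: gatatttAATAAAataacctttaaacagtc
Camk2n1, chr4:138460094-138460123, plus strand: gtagcaaggaaAATAAAtctcttaaatata
Camk2n2, chr16:20619215-20619244, minus strand: AATAAAcacagacctccgtgtgtgagtgtg

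The letters AATAAA were searched on the transcript strand alone and occurred in the last 30 bases of 35.5% of the 58797 protein-coding transcripts in the annotation. They were present in 4 of the 5 windows, all but the upstream end of Camk2b. Both Camk2b windows were rich in A, with 27 of 30 bases at the 3′-most end and 22 of 30 at the other. The counts were 15 of 30 for Camk2n1, 14 of 30 for Camk2g and 9 of 30 for Camk2n2. The genes lie on separate chromosomes, Camk2b at chr11:5969644-6066362, Camk2d at chr3:126596302-126846326, Camk2g at chr14:20734875-20794088, Camk2n1 at chr4:138454314-138460123 and Camk2n2 at chr16:20619215-20621287.

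A member was counted as detected in a library with at least 10 reads. Over the 6 members and 16 neurons, 76 of 96 values in dendrites and 89 of 96 in somas were detected. Camk2n2 was detected in all 32 libraries, and Camk2b in all but the dendrites of neuron 16, which held 2 of its reads. Camk2a was the member least often detected in somas, in 12 of 16. Camk2d was the one least often detected in dendrites, in 8 of 16 against 16 of 16 somas. Fewer transcripts in a compartment and fewer transcripts captured from it cannot be told apart in these counts.

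Levels were compared between genes per kilobase, using the union of the annotated 3′UTRs of a gene. In dendrites the median level fell in the order Camk2n2 with 353.2 normalized reads per kilobase, Camk2b with 283.1, Camk2n1 with 31.4, Camk2g with 25, Camk2a with 19.9 and Camk2d with 4.22. In somas the order was Camk2n2 with 442.7, Camk2b with 258.5, Camk2g with 97, Camk2n1 with 37, Camk2d with 20.9 and Camk2a with 10.2. Per kilobase, an inhibitor and the beta subunit therefore headed the order in both compartments. Camk2a stood last in somas and next to last in dendrites. The order depended on the division by length, which ran from 961 nt for Camk2n2 to 9777 nt for Camk2d. Without it Camk2b had the highest median in both compartments, with 619.2 normalized reads in dendrites and 565.4 in somas. Camk2n2 followed with 339.4 and 425.4. Camk2a, with 69.6 in dendrites, then stood above Camk2g with 54.5 and Camk2d with 41.3. In somas Camk2a stayed last, with 35.7. The ranges of neighbours in each order overlapped over the 16 libraries.

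The comparison of dendrites with somas asks which of these RNAs were enriched on either side, and it was made with edgeR over 10880 genes with neuron as a block. None of the 6 members was called at an adjusted p of at most 0.05, where 6.53% of all tested genes were called, 0.827% on the side of the dendrites and 5.71% on that of the somas. By unadjusted p under 0.05, 2 members were lower in dendrites, Camk2d and Camk2g, beside 26.7% of all genes, and 0 were higher, beside 3.55%. The median tested gene had a log2 fold change (dendrites over somas) of -1.49, so each member is also given relative to it. Relative to the median gene, 4 members lay above and 2 below, and the median of the 6 log2 fold changes was -0.01. The scaling shifted all values together: rescaling dendrites so that the median gene stood at 0 gave 590 genes higher in dendrites and 89 in somas, in place of 90 and 621, and called no member.

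Camk2a, the alpha subunit, ranged from 0 to 690.5 normalized reads in dendrites with a median of 69.6. In somas it ranged from 0 to 460.1 with a median of 35.7. The compartments overlapped over nearly their whole ranges, with Camk2a higher in the dendrites of 9 neurons, in the soma of 5, and without a read on either side in neurons 15 and 16. The log2 fold change was 1.25 (SE 1.27, edgeR adjusted p = 0.491), or 2.74 above the median gene. The interval of 2 SE on either side ran from -1.30 to 3.79, which holds a somatic excess, equal amounts and a large dendritic excess.

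Single neurons differed widely and in both directions for Camk2a. In neuron 8 the dendrites held 296 reads and the soma 1, and in neuron 13 they held 268 and 133. Neuron 12 stood at the other extreme, with 0 reads in dendrites and 52 in the soma, and neuron 2 held 23 and 120. A count of 0 allows up to 3 reads, which is 3.05 normalized reads in the dendrites of neuron 12 and 0.738 in the soma of neuron 16. The floor covers counting error only, since the reads carry no molecular identifiers.

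Camk2a was set beside Slc17a7, the vesicular glutamate transporter of many excitatory neurons. At 10 reads or more, both were detected in 12 dendrite libraries and neither in 2. In somas both were detected in 9 libraries, Camk2a alone in 3, Slc17a7 alone in 1 and neither in 3. The dendrites and soma of neurons 15 and 16, with no Camk2a read, held at most 2 reads of Slc17a7. In the same edgeR fit the log2 fold change of Slc17a7 was 2.97 (SE 1.28, adjusted p = 0.117), or 4.47 above the median gene, with 11 neurons higher in dendrites and 4 in the soma. Gad1 was called higher in somas, at -1.58 (SE 0.38, edgeR adjusted p = 0.0148), or -0.09 relative to the median gene. In dendrites the summed glutamatergic markers ran from 1.45 to 8313.1 normalized reads and the GABAergic ones from 4437.2 to 21738.1. Neuron 16 held 91737 Gad1 reads in its soma. Gad1 was detected in all 32 libraries, so finding it beside Camk2a does not tell whether the 2 marker classes were separate.

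Camk2b, the beta subunit that binds actin, ranged from 2.9 to 1996.3 normalized reads in dendrites (median 619.2). In somas it ranged from 257.8 to 1169.7 (median 565.4). The soma values were the tighter of the 2 sets and lay inside the dendrite range, and 8 neurons were higher on each side. The log2 fold change was -0.12 (SE 0.71, edgeR adjusted p = 0.916), which is 1.37 above the median gene, and the interval of 2 SE ran from -1.54 to 1.29. The dendrites of neurons 12 and 16 were far below their somas, with 10 reads against 200 and 2 against 2484.

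Camk2d, the delta subunit, ranged from 1.69 to 585.8 normalized reads in dendrites (median 41.3). In somas it ranged from 34.3 to 431.1 (median 204.2). Dendrites spread lower, 8 of them with fewer than 10 reads, but the ranges overlapped. It was lower in the dendrites of 13 of 16 neurons, with a log2 fold change of -2.29 (SE 1.01, edgeR adjusted p = 0.124). The difference relative to the median gene was -0.80, so Camk2d lay nearer to the median gene than to equal levels.

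Camk2g, the gamma subunit, ranged from 0 to 164.4 normalized reads in dendrites (median 54.5). In somas it ranged from 30.7 to 711.9 (median 211.9). It was lower in the dendrites of 13 of 16 neurons, and its highest dendrite library stood below the soma median. The log2 fold change was -2.20 (SE 0.99, edgeR adjusted p = 0.131), or -0.71 relative to the median gene. The dendrites of neurons 14, 15 and 16 held 1, 0 and 3 reads, where their somas held 499, 566 and 1250.

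Camk2n1, the first inhibitor, ranged from 0 to 543.4 normalized reads in dendrites (median 104.7). In somas it ranged from 0 to 633.9 (median 123.7). It was higher in the dendrites of 9 neurons and in the soma of 7. The log2 fold change was 0.51 (SE 1.09, edgeR adjusted p = 0.755), or 2.01 above the median gene, with an interval of 2 SE from -1.68 to 2.70. Presence was one-sided in a few neurons: neuron 13 held 36 reads in dendrites and 0 in its soma, while neuron 14 held 0 and 500 and neuron 15 held 0 and 244. Neuron 16 had 1 read in all.

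Camk2n2, the second inhibitor, was the steadiest member. It ranged from 96.6 to 1147.3 normalized reads in dendrites (median 339.4) and from 139.4 to 1010.8 in somas (median 425.4), so no library lacked it. Each side was higher in 8 neurons. The log2 fold change was 0.10 (SE 0.65, edgeR adjusted p = 0.926), or 1.59 above the median gene, with an interval of 2 SE from -1.21 to 1.41. Over the 16 neurons the log2 difference between dendrites and soma had an SD of 1.13 for Camk2n2, against 2.51 for Camk2b, 2.39 for Camk2g, 2.44 for Camk2d, 3.27 for Camk2a and 3.43 for Camk2n1.

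**Figure D1:**
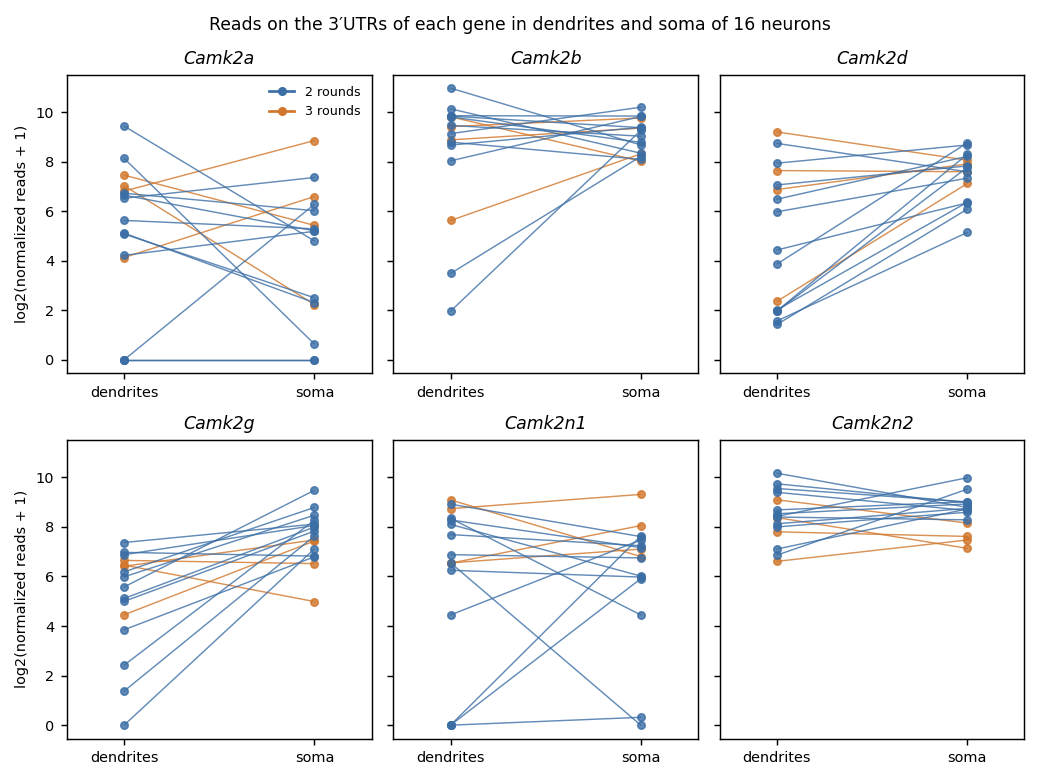
Normalized reads, as log2(normalized reads + 1), of the 6 members in the dendrites and soma of each of 16 neurons; a line joins the 2 compartments of a neuron and colour gives the rounds of amplification. Camk2d and Camk2g fall to the left in 13 of 16 neurons, while the lines of Camk2a and Camk2n1 cross in both directions and Camk2n2 stays within a narrow band.

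The calls depended on the test and on spike-in scaling. The size of the differences moved with spike-in scaling, rescaling, removal of the block and restriction to the neurons of 3 rounds. edgeR with the median-of-ratios scaling that DESeq2 uses gave -2.52 for Camk2d (adjusted p = 0.0795) and -2.50 for Camk2g (adjusted p = 0.0722), neither called. DESeq2 on the same genes called Camk2d, at -2.50 (SE 0.58, adjusted p = 0.000115), and Camk2g, at -2.49 (SE 0.56, adjusted p = 8.09e-05), where it called 46.2% of all genes higher in somas and 4.26% higher in dendrites, with no member among the latter. Scaling by the spike-in RNAs in the 14 neurons that had them moved the median gene to -3.96 and called 61.4% of all genes higher in somas and 0.147% higher in dendrites. Under that scaling Camk2b (-2.71, SE 1.10, edgeR adjusted p = 0.027), Camk2d (-5.19, SE 1.45, edgeR adjusted p = 0.00271), Camk2g (-4.92, SE 1.45, edgeR adjusted p = 0.00405) and Camk2n2 (-2.38, SE 1.07, edgeR adjusted p = 0.0441) were called. Camk2a at -0.35 and Camk2n1 at -1.87 were not. Against the median gene, Camk2a, Camk2n1 and Camk2n2 lay above it in all 13 fits that did not leave out single neurons, Camk2b in 12 of 13, and Camk2d and Camk2g in 1 of 13, the fit of the neurons with 3 rounds.

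**Figure D2:**
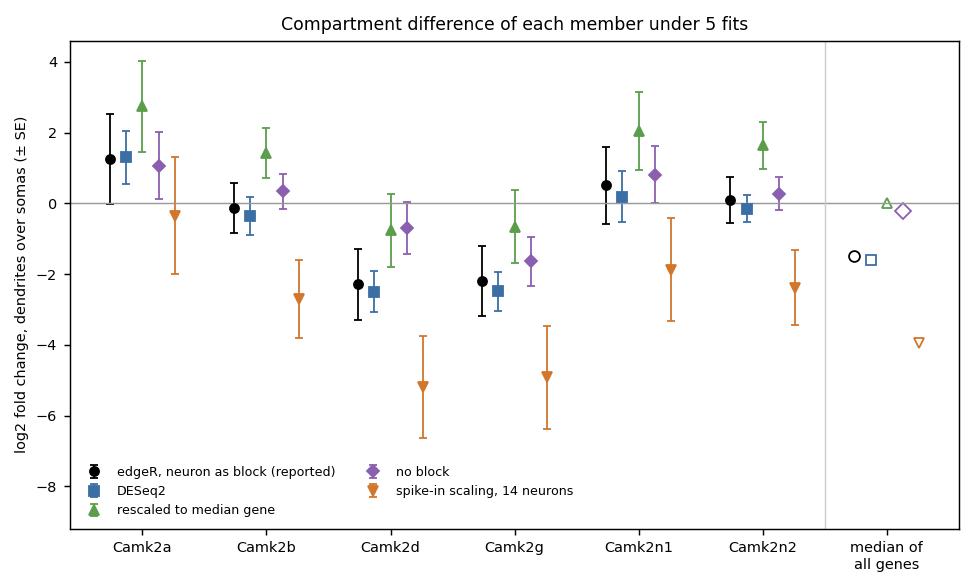
Log2 fold change of each member, dendrites over somas, with its SE under 5 fits; open symbols at the right give the median of all genes tested in the same fit. Camk2d and Camk2g lie below and the other 4 members above the median gene of each fit shown, and the spike-in fit shifts all members downward.

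Within the 12 neurons amplified in 2 rounds, Camk2d was at -2.88 (SE 1.32, edgeR adjusted p = 0.155) and Camk2g at -2.93 (SE 1.26, edgeR adjusted p = 0.134). Within the 4 neurons amplified in 3 rounds they were at -0.35 (SE 1.37, edgeR adjusted p = 0.975) and 0.07 (SE 1.59, edgeR adjusted p = 0.993). Camk2a was at 1.37 and 0.99 in these groups, and Camk2n1 at 0.63 and 0.45. The difference between the groups, tested as an interaction, was 2.32 (SE 2.26) for Camk2d and 2.80 (SE 2.17) for Camk2g, both with an edgeR adjusted p = 1.

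The make-up of the kinase reads within a library does not depend on the scaling between libraries. It was taken in 15 neurons, since the dendrites of neuron 16 held under 10 reads of the 4 kinase genes. Camk2b took 62.3% ± 25.1 (SD, n = 15) of these reads in dendrites. Its share in somas was 51.8% ± 15.6 (SD, n = 15), so it had the largest mean share on both sides. In the same order of compartments, Camk2a took 12% ± 16.7 and 6.39% ± 9.42, Camk2d 10.6% ± 12 and 18.9% ± 9.69, and Camk2g 15.1% ± 22.7 and 22.9% ± 14.9 (all SD, n = 15).

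Paired by neuron, the Camk2d share was lower in dendrites in 13 of 15 neurons, with a mean difference of -8.3 ± 12.9 percentage points (SD), and the Camk2g share in 11 of 15, with -7.8 ± 19.3 (SD). The Camk2b share was higher in dendrites in 10 of 15, by 10.5 ± 28.1 (SD), and the Camk2a share in 9 of 15, by 5.6 ± 19.7 (SD). Every mean difference was smaller than its SD over neurons. In the 4 neurons with 3 rounds alone the mean differences were 6.28 points for Camk2g, -2.36 for Camk2a, 0.747 for Camk2b and -4.67 for Camk2d, so the direction turned for Camk2g and Camk2a. Camk2a reached 68.9% of the kinase reads in the dendrites of neuron 13 against 2.17% in its soma, and without neuron 13 its mean difference was 1.24 points.

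The ratio of inhibitor to kinase reads, on the log2 scale, was -0.27 ± 2.58 in dendrites and -0.92 ± 0.53 in somas (SD, n = 16 each). It ran from -3.86 to 6.72 in dendrites and from -1.95 to 0.07 in somas, so the dendrite values enclosed all the soma values. The ratio was higher in dendrites in 10 of 16 neurons, by 0.64 ± 2.76 (SD). Neuron 16, where Camk2n2 held 790 reads in dendrites beside 2 of Camk2b, gave the highest value, and without it the mean difference was 0.15.

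**Figure D3:**
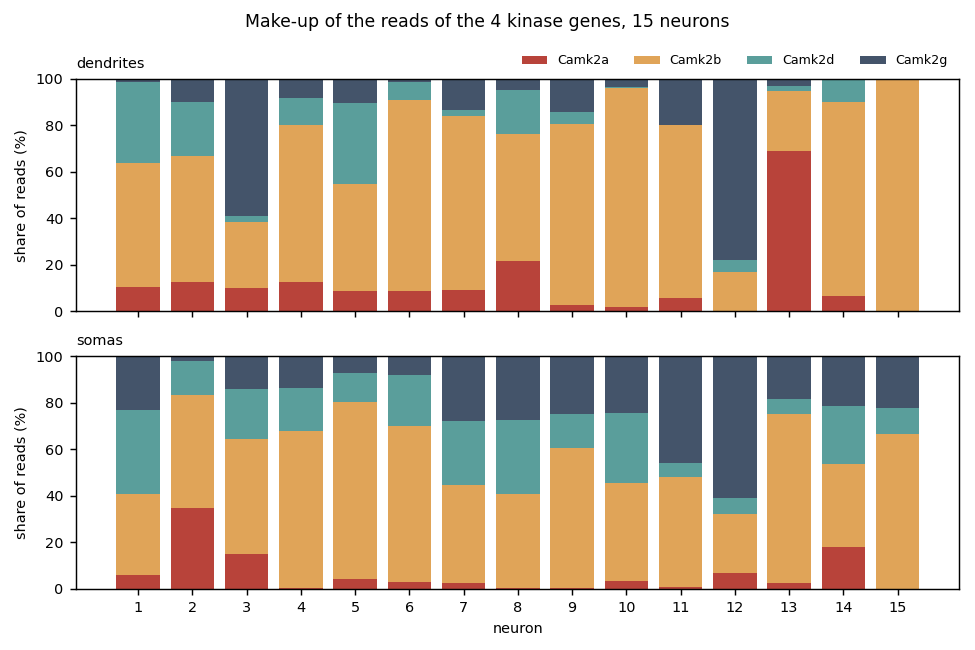
Share of the reads of the 4 kinase genes taken by each, in percent, in the dendrites (top) and soma (bottom) of 15 neurons. Camk2b takes the largest mean share in both, 62.3% and 51.8%, but Camk2g takes more in the dendrites of neuron 3 (59%) and in both compartments of neuron 12 (78% and 61.1%), Camk2a in the dendrites of neuron 13 (68.9%) and Camk2d in the soma of neuron 1 (36% against 35% for Camk2b).

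The 3′ ends of a gene were compared as the share of reads on the distal one of its 2 most used ends. The table holds 5 ends of Camk2a, 7 of Camk2b, 13 of Camk2d and 1 each of Camk2g, Camk2n1 and Camk2n2, numbered from the 3′-most end. Across all genes, 3522 had enough reads on 2 ends in both compartments of at least 5 neurons, and 8.4% of them passed an exact signed-rank p under 0.1, 159 of them also at p under 0.05. After Benjamini-Hochberg adjustment 0 passed at 0.05, and the smallest adjusted p was 0.287.

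Camk2b used its 3′-most end for 8303 dendrite and 22049 soma reads, and end 2 for 553 and 3566. End 4 had reads in somas alone (111), end 7 in dendrites alone (5), and ends 3, 5 and 6 had none. The distal share ranged from 76.2% to 100% in dendrites (median 99.6%) and from 43.7% to 100% in somas (median 94.3%). Dendrites clustered near the top, with 11 of 15 at 95% or more against 7 of 15 somas. The mean was 94.9% ± 8.16 in dendrites and 88.4% ± 15.8 in somas (SD, n = 15 each). The difference of 6.55 ± 13.9 percentage points (SD, n = 15) was positive in 12 neurons and negative in 2 (exact signed-rank test, two-sided, p = 0.0166, adjusted p = 0.86 over all genes tested). It did not pass the correction, and an exact sign-flip test, which weighs the size of each difference, gave p = 0.0989.

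The largest differences in end use of Camk2b came from single neurons. Neuron 14 had 79.7% of its dendrite reads and 43.7% of its soma reads on the distal end. Neuron 13 had 100% and 69.4%. Neuron 8 went the other way, with 76.2% in dendrites and 99.8% in the soma, where the upstream end held 170 of the dendrite reads and 2 of the soma reads.

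**Figure D4:**
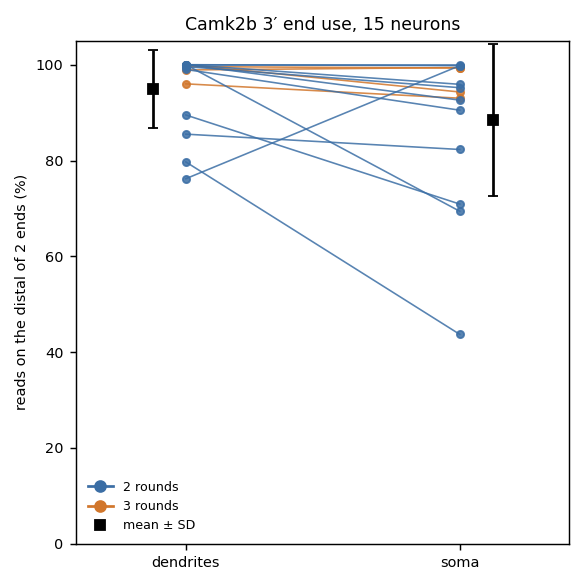
Percent of Camk2b reads on the distal of its 2 most used ends, for 15 neurons; lines join the compartments of a neuron, colour gives the rounds of amplification and squares with bars give mean ± SD. The mean is 94.9% in dendrites and 88.4% in somas, and 1 neuron crosses steeply in the opposite direction.

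Camk2a spread its reads over ends 1 and 2, with 454 and 522 reads in dendrites and 561 and 255 in somas. End 3 held 10 and 11 reads, end 4 held 0 and 15, and end 5 held 1 and 2. In the 7 neurons with enough reads the distal share was 67.6% ± 28.4 in dendrites and 64.3% ± 23.6 in somas (SD, n = 7 each), a difference of 3.33 ± 28.9 points (SD) with 3 neurons up and 4 down (exact signed-rank test, two-sided, p = 0.812, adjusted p = 1). The shares covered 22.7% to 100% in dendrites and 26.5% to 100% in somas. Leaving out neuron 10 turned the mean difference to -3.02 points.

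Camk2d used end 3 most, with 530 dendrite and 4212 soma reads, and end 4 was second in somas, with 998 reads, but held 21 in dendrites. Ends 7, 9, 11 and 12 held more dendrite reads than end 4, with 127, 78, 43 and 97, which is 13.6%, 8.33%, 4.59% and 10.4% of the reads on the ends of the gene. In somas they held 24, 22, 62 and 40, each under 1%. In dendrites most reads of each came from 1 library, with 122, 65, 25 and 78. Ends 6, 8 and 13 held no read, and ends 1, 2, 5 and 10 held 1, 34, 4 and 1 in dendrites and 95, 258, 632 and 37 in somas. The pair compared, ends 3 and 4, was chosen over both compartments together. Between ends 3 and 4, the share on the distal one was 97.6% ± 5.76 in dendrites and 76.2% ± 24 in somas (SD, n = 6 each). The difference was 21.4 ± 26.3 points (SD), positive in 3 neurons, negative in 1 and 0 in the other 2 (exact signed-rank test, two-sided, p = 0.25, adjusted p = 1). With 4 differences other than 0 this test cannot go below p = 0.125.

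The 3 genes with a single end differed in how much of their reads it held. The end of Camk2n2 held 26222 of the 26234 reads on its 3′UTR, and that of Camk2g 11790 of 12547. The end of Camk2n1 held 6 of 7175, none of them in dendrites. The reads of Camk2n1 thus lay on its 3′UTR but outside the end feature, and why was not tested. For the genes with several ends, the features together held 97.2% of the Camk2b reads, 76.7% of the Camk2a reads and 75.8% of the Camk2d reads.

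The genes whose difference between dendrites and soma varied most like that of Camk2a over the 16 neurons, among 7109 with at least 10 reads in at least 16 libraries, were Abhd17a (Spearman's rho 0.77), Irs1 (0.76) and Eif1ax (0.75). For Camk2n1 they included Smyd2 (0.77) and Cntnap5c (0.75). Among the members, the rho with Camk2a was 0.39 for Camk2d, 0.23 for Camk2b, 0.19 for Camk2g, -0.01 for Camk2n1 and -0.05 for Camk2n2. These describe 16 pairs of libraries that share their scaling and depth. The rho with Camk2n1 was -0.49 for Camk2b, -0.29 for Camk2d, 0.28 for Camk2n2 and 0.36 for Camk2g.

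Around the kinase, the calmodulins and calmodulin-binding proteins had 5 of 6 genes tested and 0 called by edgeR. Their median log2 fold change was -0.46 against -1.49 for all genes. At unadjusted p under 0.05, 2 were lower in dendrites, beside 26.7% of all genes. In the other direction 1 was higher, Nrgn (4.00, SE 1.82, edgeR adjusted p = 0.135), beside 3.55%. DESeq2 called 2 higher in somas and 1 in dendrites, beside 46.2% and 4.26% of all genes. Calm2, a calmodulin, was the most abundant in somas, with a median of 9749.0 normalized reads against 3322.9 in dendrites, lower in the dendrites of all 16 neurons (-1.34, SE 0.45, edgeR adjusted p = 0.0568). Of the 7 other CaM kinase genes, 0 were called higher in dendrites and 1 in somas, Camkk1, an upstream activating kinase (-6.79, SE 1.72, edgeR adjusted p = 0.0181). The median of the 7 was -0.85. At unadjusted p under 0.05, 3 were lower and 0 higher in dendrites, and DESeq2 called 3 higher in somas and 0 in dendrites.

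Of 8 genes for calcium entry and release, 0 were called by edgeR and 4, higher in somas, by DESeq2, with a median of -1.74. At unadjusted p under 0.05, 2 were lower in dendrites, beside 26.7% of all genes. Grin2a, an NMDA receptor subunit, was the most abundant, at medians of 350.2 normalized reads in dendrites and 1195.1 in somas (-2.13, SE 0.85, edgeR adjusted p = 0.0956). Among substrates and anchors of the kinase, 11 of 12 were tested and 0 called by edgeR, with a median of -0.03. At unadjusted p under 0.05, 1 was higher in dendrites and 2 were lower, and DESeq2 called 1 and 3. Gria1, an AMPA receptor subunit, had medians of 693.9 and 1686.2 (-1.27, SE 0.52, edgeR adjusted p = 0.103). Of 11 phosphatase genes that oppose the kinase, 10 were tested, with 0 called by edgeR, 6 called higher in somas by DESeq2 and a median of -0.98. At unadjusted p under 0.05, 3 were lower in dendrites, beside 26.7% of all genes. Ppp2ca, a catalytic subunit of protein phosphatase 2A, had medians of 1775.9 and 4021.4 (-1.30, SE 0.49, edgeR adjusted p = 0.0816).

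Of 6 RNA-binding proteins known to bind Camk2a mRNA, 2 were called higher in somas and 0 in dendrites by edgeR, with a median of -1.72, and DESeq2 called 4 and 0. Counts of the pathway lists are read against the shares of all genes, on few genes. The shares called higher in somas were 5.71% by edgeR and 46.2% by DESeq2, and those higher in dendrites 0.827% and 4.26%. The DESeq2 counts of 4 of 6 here, 4 of 8 for calcium entry and 6 of 10 for phosphatases stand beside 46.2%. The 2 called by edgeR were Cpeb1, a regulator of poly(A) tails and translation (-5.10, SE 1.28, edgeR adjusted p = 0.0172), and Fmr1, which encodes the fragile X protein (-5.16, SE 1.35, edgeR adjusted p = 0.0203). Cpeb1 had a median of 0.726 normalized reads in dendrites and 114.2 in somas, and Fmr1 2.69 and 132.7, with most dendrite libraries near 0.

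Markers of other cell types were read beside these values. The summed level of 6 astrocyte markers ran from 0 to 1564.6 normalized reads in dendrites (median 451.6) and from 0 to 1303.2 in somas (median 143.4). The 3 tested had a median log2 fold change of 1.47, against -1.49 for all genes, and 0 were called by edgeR. DESeq2 called 1 higher in dendrites, beside 4.26% of all genes, and 1 was higher at unadjusted p under 0.05, beside 3.55%. For 6 microglia markers the ranges were 0 to 1229.1 and 0 to 46, with none of them reaching the filter for testing, and for 6 oligodendrocyte markers 0 to 513.0 and 0.246 to 379.0. Their part in the levels of the kinase and inhibitor genes was not tested.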

How the data were processed

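Primary mouse hippocampal neurons gave 32 libraries, dendrites and soma of 16 neurons. The authors trimmed and aligned the reads to mm10 with STAR 2.4.0 (submitters' processing notes) and used VERSE for counting reads with 1 mapping position. The deposited files hold whole-number read counts without normalization: on the union of the 3′UTRs of a gene, on the terminal 500 nt before a 3′ end, and on exons and 92 spike-in RNAs. Closer ends were merged by the authors, and the reads carry no molecular identifiers. Column order differed between the tables, so columns were matched by name. Positions of the ends are not in the counts table. The numbering was read as rising from the 3′-most end, as positions listed in the study's supplement show, so the lower-numbered end was taken as distal.

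The genes reaching 1 read in 16 or more libraries were compared with edgeR 4.0.16 in R 4.3.3 (TMM, robust quasi-likelihood test, neuron as a block, Benjamini-Hochberg over 10880 genes, adjusted p of at most 0.05). DESeq2 1.42.0 was an alternative, and its size factors gave the normalized reads. The SE of a log2 fold change was taken from the F statistic. End use was compared in neurons with at least 10 reads on the 2 most used ends in both compartments, in genes with at least 5 such neurons, with the exact signed-rank test at p under 0.1 as in the study's methods. The log2 inhibitor ratio used a pseudocount of 0.5. Other values came from Python 3.11.15, NumPy 2.4.6, pandas 2.3.3 and SciPy 1.17.1. Sequences and lengths came from GENCODE M21. Both tests were checked on simulated data.

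The pairing comes from the cells. The correlation of deviations from the compartment means was 0.0833 ± 0.0763 (SD, n = 16) between compartments of 1 neuron and -0.00506 ± 0.0534 (SD, n = 240) between neurons. Reads on 3′UTRs per library (646521 to 21169974) limit the counts, and precision was taken from the spread between neurons. With no culture or animal named, p-values measure the spread between these neurons.

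The members, the pathway lists and the markers were chosen with earlier results of these data known. The text names all members and their ends, the genes of a pathway list that passed, otherwise the most abundant 1 of a list, and the 3 genes most like Camk2a and Camk2n1 in their differences, apart from 1 gene that is not reported here. The 5 neuron markers, the glutamatergic marker Slc17a7 and the GABAergic markers Gad1 and Gad2 were named from the marker lists after their values were seen. So were Nrgn and Shank3 from the pathway lists, as the genes higher in dendrites at unadjusted p under 0.05. Alternatives covered the test, scaling, filters, exon counts, the block, thinning, amplification rounds and each neuron left out.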

Additional observations from a re-analysis of the deposited data

How the results depend on the processing

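The counts of called genes moved with most choices. Genes higher in dendrites (90) became 590 with dendrites rescaled to the median gene, 16 with spike-in scaling, 15 without a filter beyond 1 read, 157 without the replicate block, 43 and 4 in the neurons of 2 and 3 rounds alone, and 463 with DESeq2. Genes higher in somas (621) became 1008 with median-of-ratios scaling, 89 with the rescaling, 6681 with spike-ins, 143 without the filter, 181 at 10 reads or more, 257 on exon counts, 77 without the block, 363 after thinning, 354 and 1 in 2 and 3 rounds alone, and 5029 with DESeq2. Leaving out each neuron gave 56 to 120 and 130 (without neuron 16) to 990 (without neuron 5). The cause was not tested, apart from the fewer neurons or genes that some alternatives use.

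Without the replicate block Camk2a was at 1.07, Camk2b at 0.34, Camk2d at -0.69, Camk2g at -1.64, Camk2n1 at 0.81 and Camk2n2 at 0.27, none called, and the median gene at -0.22. Camk2b (-0.12) changed sign to 1.42 with the rescaling, 0.21 at 10 reads or more, 0.25 on exon counts, 0.15 after thinning and 0.15 in 3 rounds alone, and it was called at -2.71 with spike-ins. Camk2n2 (0.10) changed sign to -0.15 with median-of-ratios scaling, -2.38 with spike-ins (called), -0.02 without the filter, -0.15 in 2 rounds alone and -0.15 with DESeq2. Camk2a and Camk2n1 changed sign with spike-ins alone, to -0.35 and -1.87. Camk2g changed sign in 3 rounds alone, to 0.07. Camk2d and Camk2g were called with spike-ins (-5.19 and -4.92) and with DESeq2 (-2.50 and -2.49). Leaving out each neuron called no member and gave 0.88 to 1.88 for Camk2a, -0.25 to 0.39 for Camk2b, -2.55 to -1.77 for Camk2d, -2.44 to -1.67 for Camk2g, 0.26 to 1.05 for Camk2n1 and 0.01 to 0.49 for Camk2n2.

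The distal share of Camk2b differed by 6.88 points without the block (unpaired permutation test, p = 0.133), and by 4.45 to 8.7 points with each neuron left out (exact signed-rank p = 0.00122 to 0.0327). That of Camk2a turned to -4.57 points without the block and ranged from -3.02 to 10.1 with each neuron left out. That of Camk2d ranged from 14.3 to 26.6. A fit of end use in 3 rounds alone was not run, since 4 neurons cannot give the minimum of 5 pairs, and Camk2a had under 5 pairs at a minimum of 20 reads. Detections, kinase shares and the inhibitor ratio moved by less than their spread, or by less than 1.5 times, in every alternative, including reads per kilobase of 3′UTR, which was chosen after seeing the data. Within that spread, which is the SD over neurons, the share differences turned sign in 3 rounds alone for Camk2g (6.28 points) and Camk2a (-2.36). In 3 rounds alone that of Camk2b fell to 0.747. Per kilobase the Camk2d difference was -2.27 ± 4.08 points (SD), in place of -8.3 ± 12.9 (SD).

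The smaller depth of dendrites limits what a low count can show, and all libraries thinned to 646521 reads left 71 of the 96 member values detected in dendrites and 81 of 96 in somas.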
